A study of Mus musculus with 25 samples.

Results

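The 9 genes described here mark T cells and natural killer (NK) cells of the gut lining. They are Cd3g, Cd3e, Cd8a, Lck, Zap70, Cd7, Itgae, Ccl5 and Klrd1. They were taken by symbol, from a list drawn up with earlier results of these data known, out of a table of read counts for 17007 genes of the mouse duodenum, in which each has 1 row. All 9 passed the filter on low counts in each of the 8 comparisons made.

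Intraepithelial lymphocytes are T cells and related innate cells that sit between the epithelial cells of the gut. In the mouse small intestine most of them carry CD8 alpha chains and an integrin that binds E-cadherin on the epithelium, many use a gamma-delta T cell receptor, and they are known for killing damaged or infected epithelial cells. The T cell receptor signals through the CD3 chains, whose tails are phosphorylated by the kinase Lck and then bind the kinase Zap70. Cytotoxic T cells and NK cells store granzymes and release the chemokine Ccl5.

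Polyadenylated RNA of the duodenum was sequenced in 25 libraries from male mice that were 8 weeks old at the start and stayed 8 weeks on their diet. The KI_Half group (6 libraries) and the KI_Con group (4) were Aldh2KI mice, a knock-in at Aldh2, which encodes the mitochondrial enzyme that oxidises acetaldehyde formed from ethanol. The WT_Con (4), WT_Half (7) and WT_Full (4) groups were C57BL/6N mice, here called wild type. The KI_Half and WT_Half groups had 2.5% ethanol in the diet and 2 g/kg ethanol by gavage 2 times per week. The WT_Full group had 5% ethanol in the diet and 4 g/kg by gavage 2 times per week, and the KI_Con and WT_Con groups had a control diet. Collection was 9 h after a last gavage, for which a dose of 5 g/kg is stated. The knock-in allele, whether control mice were gavaged, and whether a library is 1 mouse or a pool are not stated in what was used here. Gavage and ethanol therefore cannot be told apart, and p-values measure the spread between these libraries.

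Library totals were 24.6 to 44.8 M counts, so 1 CPM (count per M counts) stood for 24.6 to 44.8 reads. The counts behind single values of the 9 genes ran as low as 7 reads, for Cd3e in 1 WT_Full library, and as high as 1004. Aldh2 averaged 363 ± 54.8 CPM in KI_Half and 441 ± 23.99 CPM in KI_Con, and 479 ± 20.997, 440.5 ± 74.9 and 449 ± 128 CPM in WT_Con, WT_Half and WT_Full (SD), so its level gives no check of the genotype labels. Genes of the villus epithelium were high in all 25 libraries, with a mean log2 CPM over 14 genes of 10.34 to 11.24. Libraries stood apart in pancreatic and Brunner gland RNA. The pancreatic gene Ctrb1 was at 52.0 to 993 CPM in KI_Con replicates 1 and 2 and WT_Con replicates 1, 3 and 4, and at most 8.76 CPM in the other 20 libraries. Brunner glands are mucous glands of the upper duodenum, and the mean log2 CPM of their genes Muc6, Tff2 and Gkn3 ranged from 2.30 to 14.07 over the libraries. Results on the controls are therefore also given without the 5 libraries above 10 CPM of Ctrb1.

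In the GRCm38 mouse genome the 9 genes lie on 5 chromosomes. The CD3 genes are neighbours: Cd3g (ENSMUSG00000002033, chr9:44969572-44980431, minus strand) and Cd3e (ENSMUSG00000032093, chr9:44998740-45009627, minus strand) flank Cd3d, the gene of the CD3 delta chain, at chr9:44981786-44987339 on the plus strand. The others are Cd8a (ENSMUSG00000053977, chr6:71373427-71379173, plus strand), Lck (ENSMUSG00000000409, chr4:129548344-129573641, minus strand), Zap70 (ENSMUSG00000026117, chr1:36761798-36782818, plus strand), Cd7 (ENSMUSG00000025163, chr11:121036747-121039418, minus strand), Itgae (ENSMUSG00000005947, chr11:73090583-73147446, plus strand), Ccl5 (ENSMUSG00000035042, chr11:83525778-83530518, minus strand) and Klrd1 (ENSMUSG00000030165, chr6:129591782-129598775, plus strand). All 9 are protein coding. Itgae shares its stretch with Haspin on the other strand, and Cd3e, Cd7, Lck and Zap70 overlap predicted genes or a microRNA. The strand setting of the counting is not stated in what was used here, so reads from such overlaps cannot be told apart.

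RefSeq promoter windows of GRCm38.p6, each 300 bases from 250 before to 50 after a transcription start, were at hand for 5 of the 9 genes (Zap70 with 3 windows, Lck with 2, and Cd8a, Cd3g and Cd3e with 1 each). They were searched on both strands for TGTGGT (a core of RUNX sites), CAGGAA (a core of ETS sites) and AGGTGT (a core of T-box sites), which belong to factor families of T and NK cells. The windows of Lck, Zap70 and Cd3e are shown because they held the most matches. The window of Cd3g held 1 match and that of Cd8a held 0. Capitals mark matches on either strand, and each window is written 5′ to 3′ on the strand of its gene.

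Lck, chr4:129573592-129573891, minus strand: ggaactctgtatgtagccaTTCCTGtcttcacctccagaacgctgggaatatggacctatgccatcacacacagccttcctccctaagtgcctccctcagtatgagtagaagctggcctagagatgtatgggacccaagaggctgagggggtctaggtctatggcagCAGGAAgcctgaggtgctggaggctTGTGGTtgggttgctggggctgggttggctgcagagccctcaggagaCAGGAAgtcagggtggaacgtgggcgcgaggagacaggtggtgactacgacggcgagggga

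Zap70, chr1:36764265-36764564, plus strand: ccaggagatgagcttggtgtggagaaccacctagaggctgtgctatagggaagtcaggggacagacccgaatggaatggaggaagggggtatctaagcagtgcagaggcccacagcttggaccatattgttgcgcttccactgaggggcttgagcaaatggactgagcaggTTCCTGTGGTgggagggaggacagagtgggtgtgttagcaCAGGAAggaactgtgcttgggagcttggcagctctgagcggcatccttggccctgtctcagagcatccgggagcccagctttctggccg

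Cd3e, chr9:45009562-45009861, minus strand: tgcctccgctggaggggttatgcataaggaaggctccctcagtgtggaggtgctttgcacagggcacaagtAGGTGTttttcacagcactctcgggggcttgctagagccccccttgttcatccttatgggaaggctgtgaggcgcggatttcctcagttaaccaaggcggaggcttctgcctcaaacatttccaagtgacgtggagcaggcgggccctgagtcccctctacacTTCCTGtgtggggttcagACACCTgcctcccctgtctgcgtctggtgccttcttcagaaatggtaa

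In the Lck window the ETS letters began 231 bases before the start on the reverse strand and 83 and 11 bases before it on the forward strand, and the RUNX letters 58 bases before it. In the Zap70 window the RUNX letters, 75 bases before the start, overlapped an ETS match on the reverse strand. Of the 8 windows, 2 held the RUNX letters, 5 the ETS letters and 2 the T-box letters, while 16.8%, 30.6% and 13.7% of all 32851 windows of the same length did. These are letters in a window, not sites shown to be bound.

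The first question was how the 9 genes followed the ethanol dose in wild type. All 9 were lower in every WT_Full library than in every WT_Con library, with fold differences of 4.88 (Lck) to 11.995 (Ccl5), and their WT_Half medians lay between. Of all genes, 3.78% were likewise free of overlap and lower in WT_Full. Fitted as a straight line over the 3 wild-type groups, all 9 had a negative slope, -1.14 (Lck) to -1.77 (Ccl5) log2 per dose step (edgeR quasi-likelihood test, adjusted p = 0.0237 to 0.0491). The line sets equal steps, whereas Klrd1 changed by -0.33 in WT_Half vs WT_Con and by -2.10 in WT_Full vs WT_Half. The trend called 0.788% of all genes lower, and 0 of the 9 passed without WT_Con replicate 1, without WT_Full replicate 3 or with Brunner gland content as a covariate. In bulk tissue, fewer cells of a type and less RNA per cell cannot be told apart. Levels below are CPM after trimmed mean of M values (TMM) scaling, and changes are log2 ± standard error (SE).

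Cd3g and Cd3e encode the gamma and epsilon chains of the CD3 complex, which carries the signal of the T cell receptor. Cd3g had 15.9, 13.2, 5.38 and 10.2 CPM in WT_Con, 0.571 to 8.12 CPM with a median of 3.397 CPM in WT_Half, and 0.683, 1.16, 0.839 and 2.01 CPM in WT_Full. Cd3e had 10.1, 7.699, 4.75 and 7.05 CPM in WT_Con, 0.521 to 6.096 CPM with a median of 2.69 CPM in WT_Half, and 0.607, 0.270, 0.671 and 2.51 CPM in WT_Full. For both, the highest WT_Full library was below the lowest WT_Con library, and only the highest WT_Half library, replicate 6, reached the range of WT_Con. The change in WT_Full vs WT_Con was -3.25 ± 0.45 (adjusted p = 0.0580) for Cd3g and -2.86 ± 0.62 (adjusted p = 0.129) for Cd3e. In Cd3e the 4 WT_Full libraries spread 9.29-fold, and replicate 2 held 7 reads.

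Cd8a encodes the CD8 alpha chain, which pairs with itself on many intraepithelial T cells. It had 28.3, 29.2, 11.3 and 17.9 CPM in WT_Con, 1.99 to 18.97 CPM with a median of 8.36 CPM in WT_Half, and 2.13, 1.54, 0.951 and 4.38 CPM in WT_Full. WT_Full was lower by 9.62-fold, a log2 change of -3.27 ± 0.50 (adjusted p = 0.0814). Cd8b1, the CD8 beta chain of conventional CD8 T cells, averaged 1.12 ± 0.792, 0.484 ± 0.335 and 0.117 ± 0.0986 CPM in WT_Con, WT_Half and WT_Full (SD, n = 4, 7 and 4).

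Lck phosphorylates the CD3 chains when the receptor is engaged. It had 13.4, 13.1, 6.42 and 10.99 CPM in WT_Con, 1.99 to 10.6 CPM with a median of 4.48 CPM in WT_Half, and 2.39, 2.01, 1.65 and 2.91 CPM in WT_Full. Zap70 binds the phosphorylated chains and passes the signal on. It had 6.05, 7.49, 3.73 and 4.85 CPM in WT_Con, 0.893 to 6.27 CPM with a median of 2.42 CPM in WT_Half, and 0.835, 0.425, 0.615 and 1.24 CPM in WT_Full. In neither gene did WT_Full and WT_Con overlap, while the highest WT_Half library was 5.34 times the lowest in Lck and 7.02 times in Zap70. The WT_Full vs WT_Con change was -2.29 ± 0.30 (adjusted p = 0.0575) for Lck and -2.82 ± 0.39 (adjusted p = 0.0580) for Zap70.

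Cd7 is a surface glycoprotein of T and NK cells. It had 10.7, 14.5, 6.24 and 9.29 CPM in WT_Con, 0.893 to 10.2 CPM with a median of 5.68 CPM in WT_Half, and 1.404, 1.16, 0.643 and 2.21 CPM in WT_Full. Itgae encodes the alphaE integrin chain (CD103), which holds lymphocytes at E-cadherin on epithelial cells. It had 14.7, 25.1, 9.49 and 17.2 CPM in WT_Con, 3.73 to 12.4 CPM with a median of 5.71 CPM in WT_Half, and 2.24, 1.31, 2.6001 and 5.69 CPM in WT_Full. In Cd7 the 4 WT_Full libraries lay well apart from WT_Con, with a change of -2.91 ± 0.41 (adjusted p = 0.0601). In Itgae the gap was narrower, because WT_Full replicate 4 held 5.69 CPM against 9.49 CPM in WT_Con replicate 3, and the change was -2.48 ± 0.46 (adjusted p = 0.123).

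Ccl5 is a chemokine that activated CD8 T cells and NK cells release and that draws further lymphocytes. It had 26.5, 30.3, 14.1 and 15.5 CPM in WT_Con, 1.14 to 21.8 CPM with a median of 7.17 CPM in WT_Half, and 2.32, 1.78, 0.671 and 2.44 CPM in WT_Full. Klrd1 encodes CD94, the shared chain of the CD94/NKG2 receptors on NK cells and some T cells. It had 4.31, 5.797, 3.28 and 2.97 CPM in WT_Con, 1.04 to 4.49 CPM with a median of 3.22 CPM in WT_Half, and 0.607, 1.004, 0.447 and 0.937 CPM in WT_Full. Ccl5 had the largest change of the 9 in WT_Full vs WT_Con, -3.58 ± 0.44 (adjusted p = 0.0575). Klrd1 kept a WT_Half median of 3.22 CPM, close to the WT_Con libraries, and its WT_Full libraries, at 0.447 to 1.00 CPM, lay below every WT_Half and every WT_Con library.

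**Figure D1:**
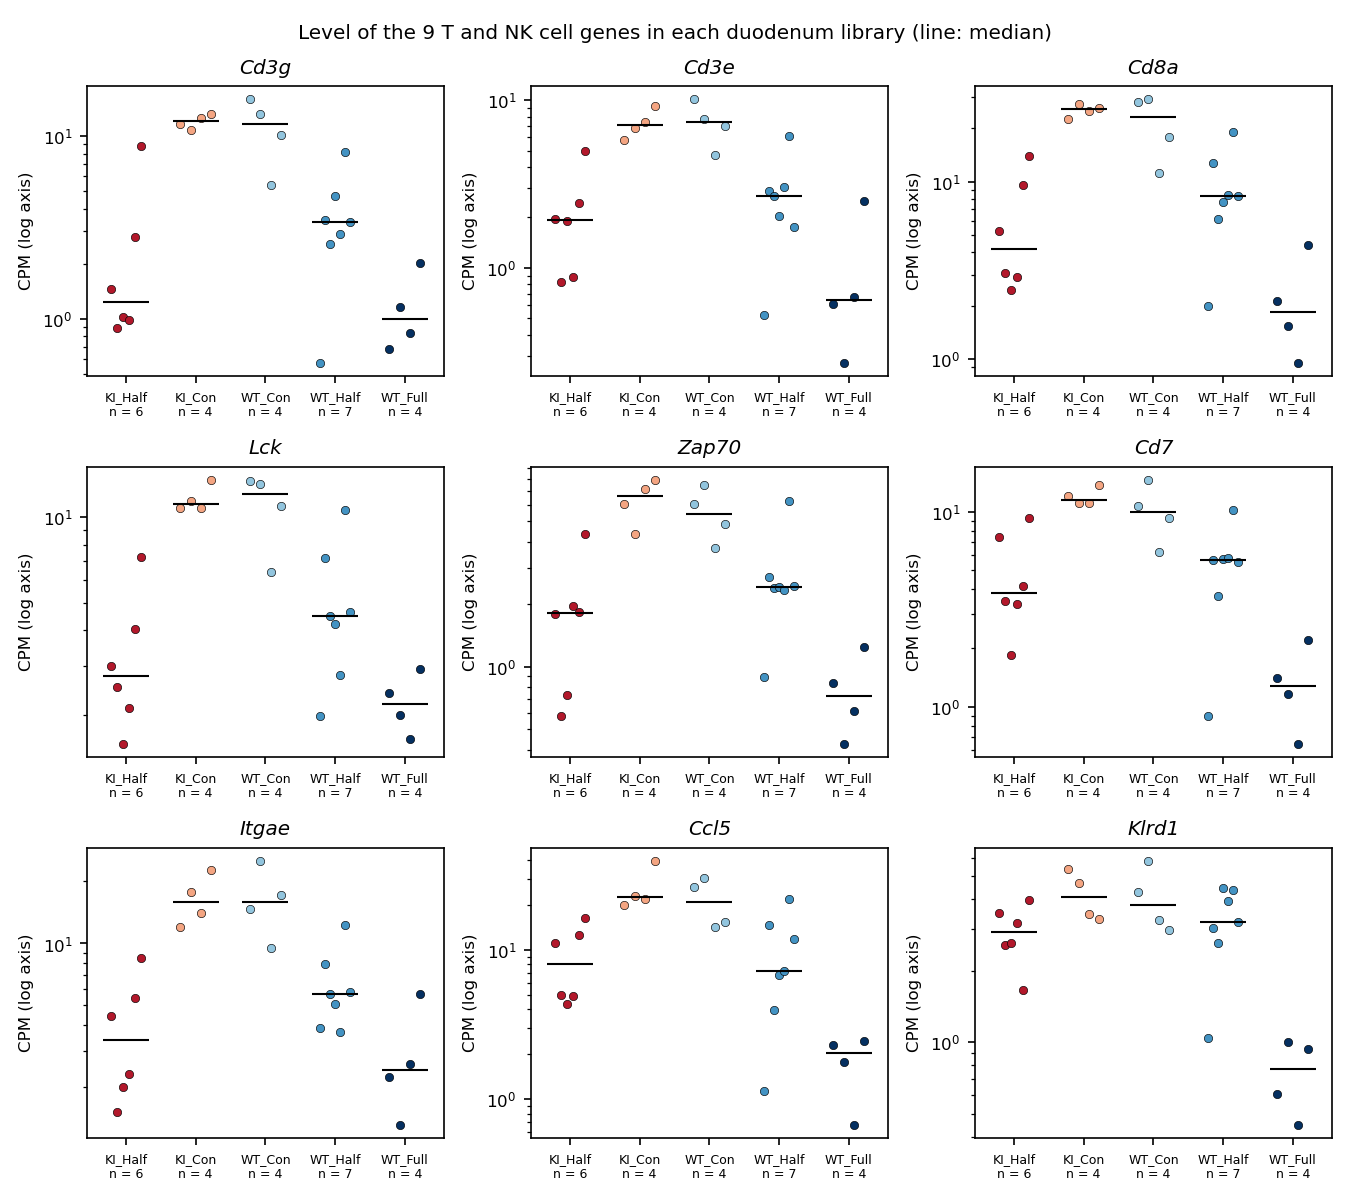
CPM of each of the 9 genes (log axis) in each library of KI_Half, KI_Con, WT_Con, WT_Half and WT_Full, with points for libraries in the order of their replicate numbers and a line at the median. In every panel the 4 WT_Full points lie below the 4 WT_Con points, and in every panel but that of Klrd1 the 6 KI_Half points lie below the 4 KI_Con points.

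Taken pairwise, the wild-type groups passed the threshold less readily. In WT_Full vs WT_Con none of the 9 genes had an adjusted p under 0.05 by edgeR; the values were 0.0575 to 0.129, all 9 unadjusted p-values were under 0.05, and 0% of the 16882 genes tested were called lower. Those 9 genes took ranks 2 (Ccl5) to 143 (Cd3e) by p among them. All 9 did not overlap between the groups, against 3.78% of genes with every WT_Full library below every WT_Con library. The authors' deposited table gives all 9 as lower, with adjusted p from 1.51e-07 to 0.000118, and calls 5.68% of its genes lower. DESeq2, limma-voom and 1 edgeR fit of all 25 libraries also called all 9, as did edgeR without WT_Full replicate 4, which was the highest WT_Full library in 8 of the 9 genes. Over all genes those fits called 926, 1410, 1289 and 2069 genes in either direction, against 1 by edgeR with all 8 libraries. Without the 3 WT_Con libraries above 10 CPM of Ctrb1, 1 control is left; the changes were then -2.53 to -4.07 and the adjusted p was 0.845 for each gene.

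In WT_Half vs WT_Con the 9 changes ran from -0.33 (Klrd1) to -1.60 (Cd3g). None passed the threshold, while 0.571% of genes were called lower, and 6 of the 9 had an unadjusted p under 0.05. Itgae came nearest, at -1.38 ± 0.33 (adjusted p = 0.0590), and Klrd1 was farthest, at -0.33 ± 0.34 (adjusted p = 0.591). None of the 9 was free of overlap between the groups, against 2.17% of genes, since WT_Half replicate 6 lay within the range of WT_Con in all 9. Without that library 4 genes passed the threshold (Cd3g, Cd3e, Zap70 and Itgae), and without WT_Con replicate 3, the lowest control in 8 of the 9, only Itgae did. DESeq2 called 3 of the 9 and limma-voom 5, out of 1353 and 1232 genes called in either direction, against 249 by edgeR. Without the Ctrb1-rich controls only WT_Con replicate 2 is left as a control, and the changes were then -0.84 to -1.98. With 1 control, that fit cannot show whether the lower levels hold.

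Between the doses, in WT_Full vs WT_Half, the changes were -1.09 (Itgae) to -2.41 (Ccl5). No gene passed the threshold (adjusted p = 0.9997 for each of the 9; 0% of all genes were called lower), although all 9 had an unadjusted p under 0.05 and DESeq2 called 2 of them and limma-voom 0. Over all genes 780 had an unadjusted p under 0.05, DESeq2 called 17 and limma-voom 2. Klrd1, with a change of -2.10 ± 0.40, was the only one of the 9 with no overlap between the groups, as were 0.259% of genes. Its WT_Full values rest on 16 to 28 reads per library. These comparisons share the 4 WT_Con, 7 WT_Half or 4 WT_Full libraries, so their values are not independent of each other.

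The trend over the 15 wild-type libraries, with the groups set at dose steps 0, 1 and 2, pooled that information. The stated last gavage of 5 g/kg is the same for WT_Half and WT_Full, so the 2 steps may differ in what they change. Effects of the last gavage and of the weeks on diet cannot be told apart. All 9 genes were called lower, as were 0.788% of 17000 genes. The slopes per step were -1.62 ± 0.28 (adjusted p = 0.0237) for Cd3g, -1.62 ± 0.30 (adjusted p = 0.0259) for Cd8a, -1.24 ± 0.21 (adjusted p = 0.0241) for Itgae and -1.18 ± 0.28 (adjusted p = 0.0491) for Klrd1. The count rested on single libraries: none of the 9 passed without WT_Con replicate 1 or WT_Full replicate 3, 1 without WT_Con replicate 2, 2 without WT_Con replicate 4 or WT_Full replicate 2, 4 without WT_Full replicate 1, and 5 without WT_Half replicate 3 or 5. All 9 slopes stayed negative in each of these fits. With Brunner gland content as a covariate the slopes were -1.02 to -1.64 with adjusted p of 0.191 to 0.209. Without the Ctrb1-rich controls, where WT_Con replicate 2 is the only control left, the slopes were -1.23 to -2.20. With 1 control, that fit cannot show whether the trend holds without the pancreas-rich libraries.

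**Figure D2:**
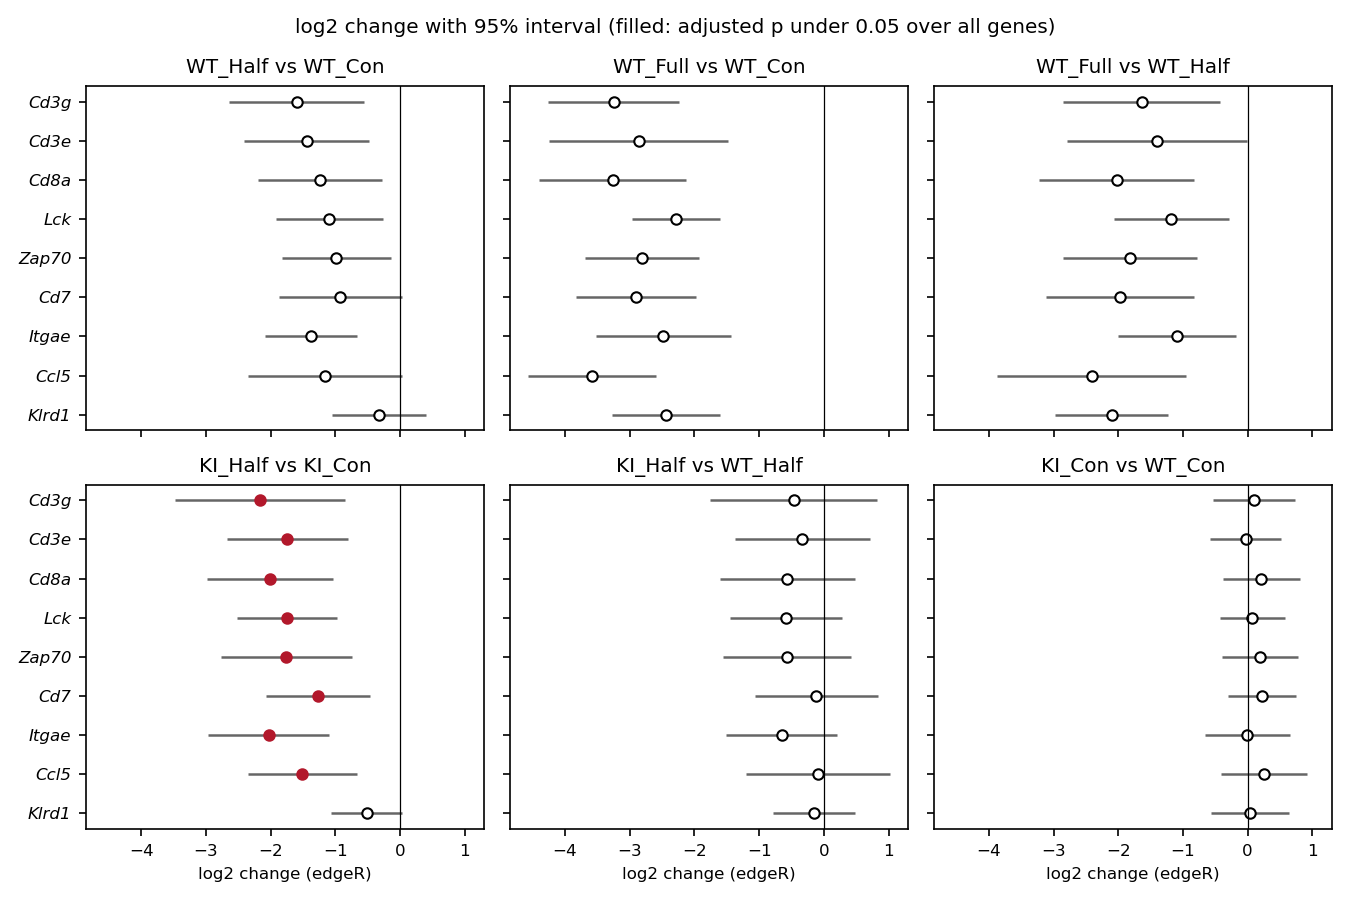
Change (log2) of each gene in 6 comparisons, as the edgeR estimate with its 95% interval; filled points have an adjusted p under 0.05 over all genes tested. The points of WT_Full vs WT_Con lie farthest to the left but are open, those of KI_Half vs KI_Con are filled for 8 genes, and the intervals of KI_Con vs WT_Con all span 0.

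Other genes of the T cell receptor mostly had negative slopes with the dose, and few passed the threshold. Of 28 further receptor and signalling genes, 27 had a negative slope and 6 were called lower (Cd3d, Trbc1, Trbc2, Tcrg-C2, Lat and Themis), with a median slope of -1.08 beside -1.43 for the 9 genes and 0.00 for all genes. Cd3d, the CD3 delta chain, fell by 1.11 ± 0.23 (adjusted p = 0.0393) per step on the log2 scale, and Tcrg-C2, a constant gene of the gamma chain, by 1.40 ± 0.28 (adjusted p = 0.0339). Trac and Trdc, the constant genes of the alpha and delta chains, averaged 5.04 ± 1.02 and 2.35 ± 0.821 CPM in WT_Con, 2.105 ± 1.21 and 1.14 ± 0.679 CPM in WT_Half, and 1.495 ± 1.44 and 0.366 ± 0.303 CPM in WT_Full (SD). Their slopes were -0.88 ± 0.27 (adjusted p = 0.0921) and -1.32 ± 0.33 (adjusted p = 0.0549), and that of Cd4, the co-receptor of helper T cells, -0.93 ± 0.24 (adjusted p = 0.0584).

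Cytotoxic genes had the same direction. Of 12 measured, 11 had a negative slope and 3 were called lower: the granzyme gene Gzma, the granule gene Nkg7 and the NK receptor gene Cd160. Gzma averaged 91.6 ± 40.2 CPM in WT_Con, 33.5 ± 18.1 CPM in WT_Half and 10.8 ± 8.795 CPM in WT_Full (SD, n = 4, 7 and 4), with a slope of -1.54 ± 0.31 (adjusted p = 0.0339). Gzmb, a second granzyme gene, had a slope of -1.29 ± 0.32 (adjusted p = 0.0549). Only 12 of the 25 genes on this list were among the genes with counts. Many NK receptor genes, such as Ncr1 and Klrk1, were absent, so Klrd1 and Cd160 stand for few such receptors. NK cells therefore cannot be told apart from T cells by the genes named here.

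Cxcl9, a chemokine that draws T cells carrying the receptor Cxcr3, was the only 1 of 16 homing genes to be called, with a slope of -1.70 ± 0.25 (adjusted p = 0.0133); Cxcr3 itself had -1.42 ± 0.38 (adjusted p = 0.0670). The pair that brings T cells to the small intestine was not called: the receptor gene Ccr9 had -0.75 ± 0.23 (adjusted p = 0.0951), and its epithelial ligand Ccl25 had -0.03 ± 0.12 (adjusted p = 0.906), with 438 ± 107, 422 ± 79.9 and 421 ± 129 CPM in WT_Con, WT_Half and WT_Full (SD). Cdh1, which encodes E-cadherin, the partner of the alphaE integrin, had 0.12 ± 0.09 (adjusted p = 0.460). Of the 13 genes of contacts between epithelium and lymphocytes, the 1 called was Il2rb, a chain of the interleukin 15 receptor that T and NK cells themselves carry, which fell by 0.90 ± 0.20 (adjusted p = 0.0458), while Il15 had -0.38 ± 0.16 (adjusted p = 0.193) and the butyrophilin-like gene Btnl1, which supports gamma-delta T cells in the mouse gut, -0.24 ± 0.18 (adjusted p = 0.438).

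Genes of other leukocytes mostly had negative slopes, and few or none of each list passed the threshold. All 14 pan-leukocyte genes had a negative slope, median -0.61, and 1 was called, Lcp1. Ptprc (CD45), on all leukocytes, averaged 27.9 ± 8.24, 15.3 ± 6.15 and 8.89 ± 5.66 CPM in WT_Con, WT_Half and WT_Full (SD), with a slope of -0.82 ± 0.21 (adjusted p = 0.0585). The median slopes were -0.56 for 7 B and plasma cell genes, -0.33 for 16 macrophage and dendritic cell genes and 0.13 for 14 villus genes, with 0 called in each of the 3 lists. That of 7 mast cell and granulocyte genes was 0.63, the other way, also with 0 called. All 9 pancreatic genes were called lower with the dose, with a median slope of -4.14, and the median of 3 Brunner gland genes was -1.89 with none called. Their part in the slopes of the 9 T and NK cell genes was not tested beyond the fits given above.

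The summed level of the 9 genes was 64.7 to 146 CPM in WT_Con, 12.9 to 98.8 CPM in WT_Half and 9.09 to 24.3 CPM in WT_Full. That of the 14 pan-leukocyte genes was 225 to 285 CPM, 77.8 to 222 CPM and 54.2 to 143 CPM in the same order of groups. The mean log2 CPM of the 9 genes minus that of the pan-leukocyte genes in the same library was -0.20 ± 0.34 in WT_Con, -0.72 ± 0.42 in WT_Half and -1.83 ± 0.81 in WT_Full (SD). Its range was -0.60 to 0.15 in WT_Con and -3.01 to -1.25 in WT_Full, without overlap. Against the villus genes the difference was -7.30 ± 0.28, -8.89 ± 0.83 and -10.41 ± 0.36. Against the 28 further receptor and signalling genes it was 1.91 ± 0.16, 1.60 ± 0.30 and 1.13 ± 0.53, with ranges of 1.81 to 2.15 in WT_Con and 0.36 to 1.60 in WT_Full. So the 9 genes were lower in WT_Full relative to leukocyte genes, to epithelial genes and to other T cell receptor genes. These are descriptions, since the lists were chosen with results known.

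**Figure D3:**
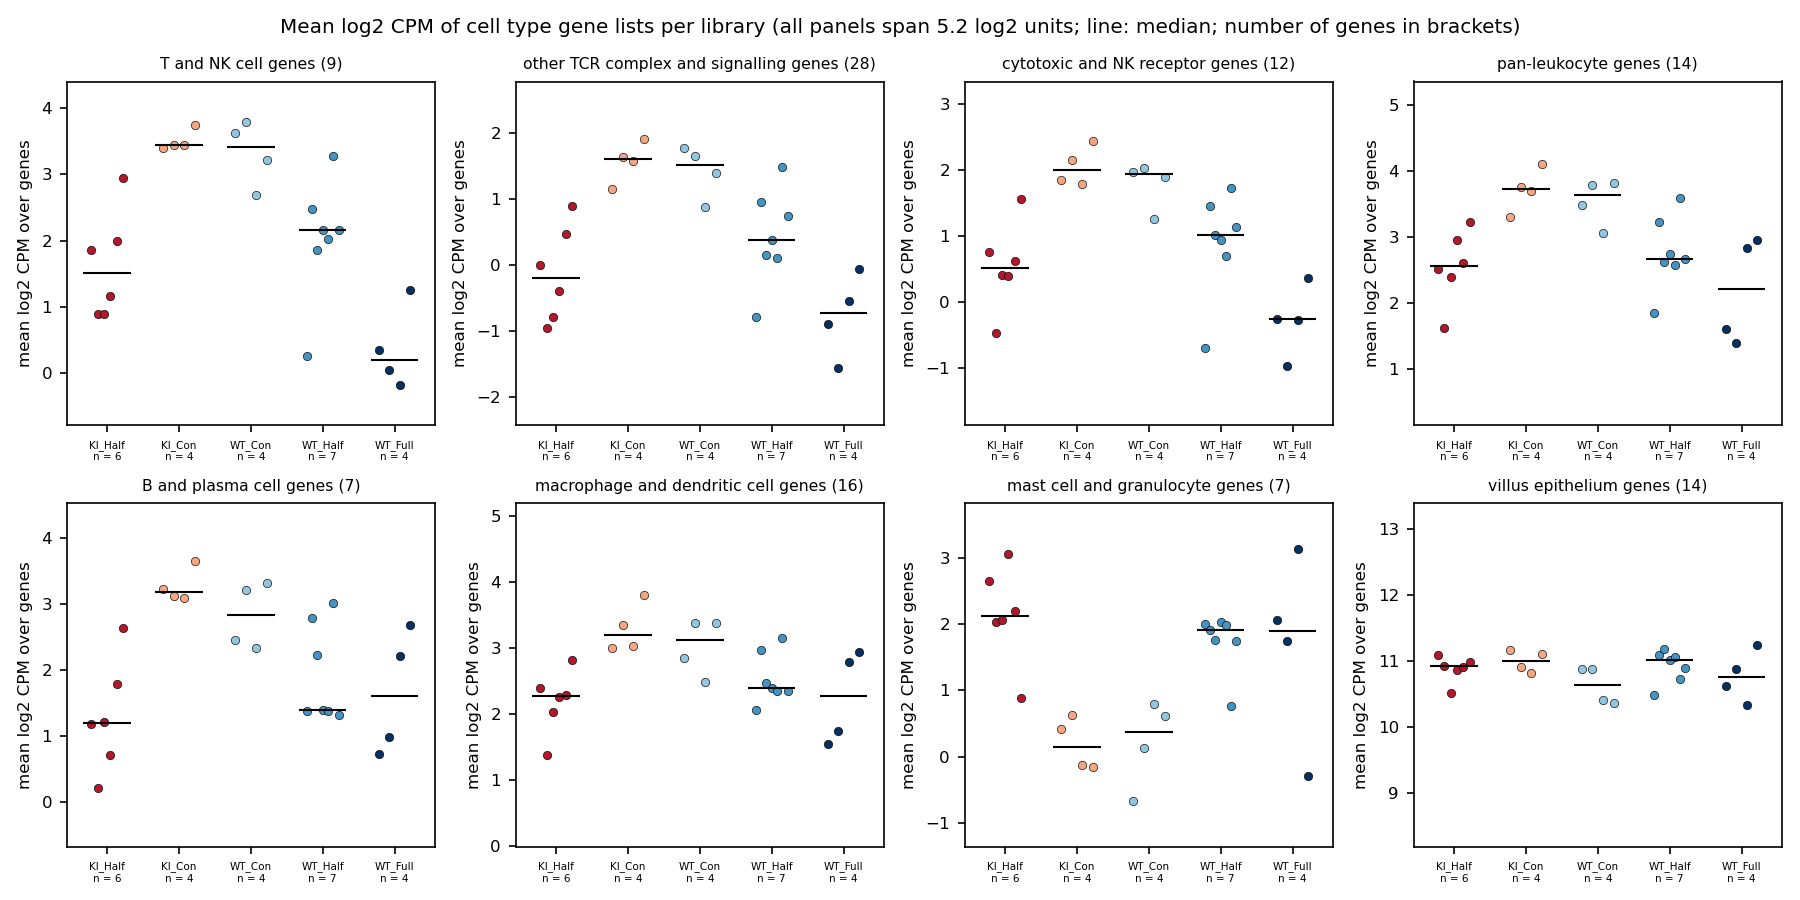
Mean log2 CPM over the genes of 8 lists in each library of KI_Half, KI_Con, WT_Con, WT_Half and WT_Full, with a line at the median; every panel spans the same number of log2 units. The 9 T and NK cell genes show wide steps, 2.69 to 3.79 in WT_Con, 0.26 to 3.28 in WT_Half and -0.18 to 1.25 in WT_Full, while the villus genes stay at 10.34 to 11.24.

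In the Aldh2 knock-in the lower dose was compared with the control diet. There 8 of the 9 genes fell, by 2.403-fold (Cd7) to 4.49-fold (Cd3g), and Klrd1 did not pass the threshold. The KI_Con libraries lay close together in Cd3g, Cd8a, Cd7 and Lck, where the highest was 1.21 to 1.26 times the lowest. In the other genes it was 1.60 to 1.97 times the lowest. The 6 KI_Half libraries lay below all 4 KI_Con libraries in the 8 genes that passed the threshold. Changes were widespread in this comparison: 17.9% of 16944 genes were called lower and 13.9% had every KI_Half library below every KI_Con library. A further 3388 genes were called higher.

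Among the receptor genes, Cd3g had 0.884 to 8.84 CPM with a median of 1.23 CPM in KI_Half, against 11.6, 10.8, 12.6 and 13.2 CPM in KI_Con. Cd3e had 0.823 to 4.95 CPM with a median of 1.93 CPM in KI_Half, against 5.77, 6.798, 7.39 and 9.24 CPM in KI_Con. Cd8a had 2.46 to 14.04 CPM with a median of 4.18 CPM in KI_Half, against 22.6, 27.4, 24.9 and 26.1 CPM in KI_Con. KI_Half replicate 7 was the highest KI_Half library in each, and indeed in all 9 genes. The changes were -2.17 ± 0.60 (adjusted p = 0.0151) for Cd3g, -1.74 ± 0.43 (adjusted p = 0.00873) for Cd3e and -2.01 ± 0.45 (adjusted p = 0.00539) for Cd8a.

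The kinase gene Lck had 1.58 to 7.24 CPM with a median of 2.76 CPM in KI_Half, against 10.8, 11.4, 10.8 and 13.5 CPM in KI_Con. Its partner Zap70 had 0.579 to 4.33 CPM with a median of 1.81 CPM in KI_Half, against 6.08, 4.37, 7.14 and 7.899 CPM in KI_Con. Lck fell by 1.75 ± 0.35 (adjusted p = 0.00337) on the log2 scale, with the smallest adjusted p of the 9 genes, and Zap70 by 1.76 ± 0.46 (adjusted p = 0.0118). In Zap70 KI_Half replicate 7, at 4.33 CPM, came close to the lowest KI_Con library, at 4.37 CPM.

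Of the surface genes, Cd7 had 1.84 to 9.24 CPM with a median of 3.84 CPM in KI_Half, against 11.999, 11.04, 11.1 and 13.7 CPM in KI_Con. Itgae had 1.52 to 8.48 CPM with a median of 3.39 CPM in KI_Half, against 11.999, 17.8, 14.1 and 22.7 CPM in KI_Con. Cd7 had the smallest fall of the 8, -1.26 ± 0.37 (adjusted p = 0.0187), and Itgae one of the largest, -2.03 ± 0.43 (adjusted p = 0.00421). Ccl5 had 4.36 to 16.4 CPM with a median of 8.06 CPM in KI_Half, against 19.9, 22.96, 21.95 and 39.3 CPM in KI_Con. KI_Con replicate 4 was far above the other 3 controls in Ccl5, and the change was -1.51 ± 0.38 (adjusted p = 0.0101). Klrd1 had 1.66 to 3.97 CPM with a median of 2.905 CPM in KI_Half, against 5.38, 4.696, 3.46 and 3.32 CPM in KI_Con. Its groups overlapped, KI_Half replicates 1 and 7 lying within the range of KI_Con, and its change was -0.52 ± 0.25 (adjusted p = 0.125).

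Without the 2 KI_Con libraries above 10 CPM of Ctrb1, 6 of the 9 were called, out of 2565 genes called in either direction, against 6420 with all controls. Cd3g then had an adjusted p of 0.0751 and Cd7 of 0.0933, with changes of -2.26 and -1.32. Without KI_Con replicate 4, Cd7 had an adjusted p of 0.0511.

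Many other immune genes fell as well in KI_Half. Of the 28 further receptor and signalling genes 17 were called lower and 0 higher, among them Trac with -2.47 ± 0.50 (adjusted p = 0.00330), Trdc with -1.74 ± 0.54 (adjusted p = 0.0246), Cd247, the CD3 zeta chain, with -1.88 ± 0.39 (adjusted p = 0.00373), and Cd4 with -1.45 ± 0.33 (adjusted p = 0.00581). Of 12 cytotoxic genes 7 were called lower, such as Gzma with -1.82 ± 0.38 (adjusted p = 0.00427) and Gzmb with -2.20 ± 0.51 (adjusted p = 0.00674). Gzmb averaged 7.02 ± 6.91 CPM in KI_Half and 32.6 ± 3.47 CPM in KI_Con (SD, n = 6 and 4). Of 14 pan-leukocyte genes 12 were called lower, of 7 B and plasma cell genes 5, and of 16 macrophage and dendritic cell genes 9, with 1 higher. Ptprc had -1.37 ± 0.23 (adjusted p = 0.00139), and the B cell receptor gene Cd79a -1.47 ± 0.31 (adjusted p = 0.00400). The median change was -1.75 for the 9 genes, -1.61 for the further receptor genes, -1.17 for the cytotoxic, -1.09 for the pan-leukocyte, -1.57 for the B cell and -0.92 for the macrophage list, beside 0.00 for all genes. The mean log2 CPM of the 9 genes minus that of the pan-leukocyte genes was -0.93 ± 0.59 in KI_Half and -0.20 ± 0.21 in KI_Con (SD), with ranges of -1.80 to -0.27 and -0.36 to 0.10 that overlapped.

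Of 13 genes through which the epithelium and intraepithelial lymphocytes act on each other, which include the lymphocyte receptor genes Il2rb, Il7r and Il18r1, 7 were called lower in KI_Half and 0 higher. Il15, a cytokine that keeps these cells alive, averaged 7.38 ± 3.78 CPM in KI_Half and 24.5 ± 2.19 CPM in KI_Con (SD), a change of -1.72 ± 0.33 (adjusted p = 0.00259). Btnl1 averaged 132 ± 58.3 CPM in KI_Half and 351 ± 40.3 CPM in KI_Con (SD), a change of -1.39 ± 0.27 (adjusted p = 0.00274). Il2rb, Btnl2, Btnl4, Btnl6 and H2-T3 were the others, the last 4 of them and the called receptor and cytotoxic genes Trbc1, Trbc2, Lat and Nkg7 being named after their values were seen. Among 16 homing genes 7 were called lower and 3 higher: Ccr9 had -1.51 ± 0.49 (adjusted p = 0.0307), Ccl25 -0.77 ± 0.15 (adjusted p = 0.00304), Cxcr3 -1.88 ± 0.53 (adjusted p = 0.0170) and Cxcl9 -2.24 ± 0.49 (adjusted p = 0.00496), while Cdh1 rose by 0.84 ± 0.18 (adjusted p = 0.00502). Of 11 lineage factors, Tbx21, the T-box factor of cytotoxic cells, fell by 2.51 ± 0.76 (adjusted p = 0.0224) and Ikzf3 by 1.65 ± 0.48 (adjusted p = 0.0184), with 3 called lower and 3 higher in all. Mast cell and granulocyte genes had a median change of 0.95, with 3 of 7 called higher and 1 lower, Siglecf. Among those higher were S100a8 and S100a9, named after their values were seen, at 6.28 and 5.86. Villus genes were mixed, with 5 of 14 lower and 3 higher. Of all 16944 genes tested, 3032 were called lower and 3388 higher. The homing and villus genes called higher lie near that share, and counts in lists this short say little. All 9 pancreatic genes were called lower, with a median change of -7.55. The part of the other cell types in the changes of the 9 genes was not tested.

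**Figure D4:**
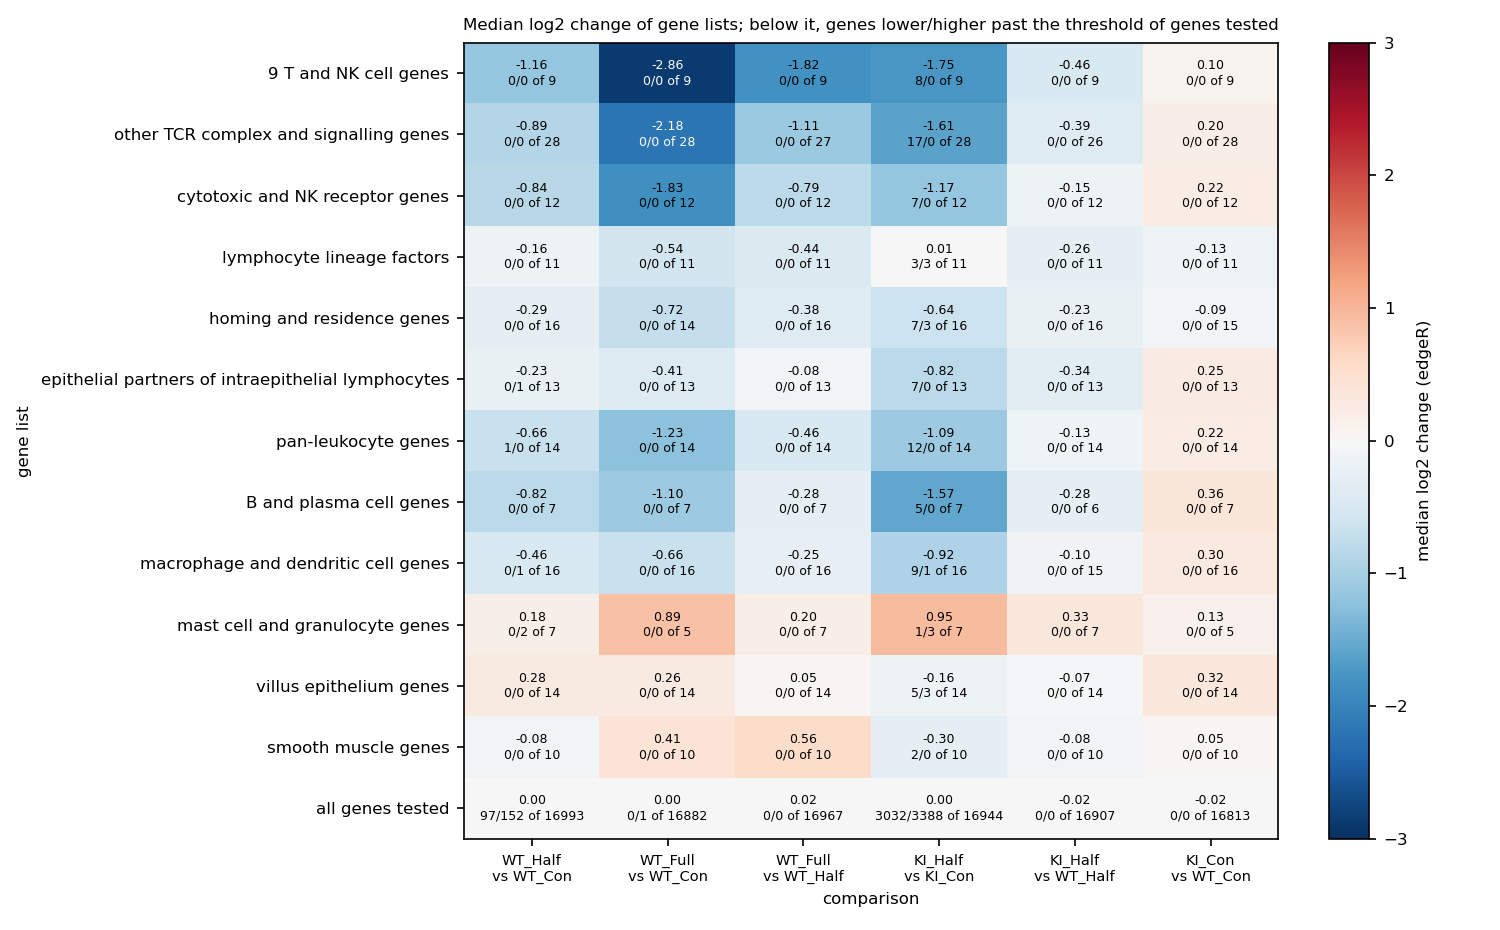
Median log2 change (colour and upper number) of 12 gene lists and of all genes in 6 comparisons, with the genes called lower and higher of those tested below it. Pancreatic and Brunner gland genes, whose medians in WT_Full vs WT_Con were -7.60 and -3.78, are not drawn. Of the 12 lists drawn the top 3 are the lowest in that comparison, at -2.86 for the 9 genes, and the pan-leukocyte, B cell and macrophage rows are negative in both KI_Half and WT_Full against their controls, while the mast cell and granulocyte row is positive.

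Genotype was compared at the lower dose and on the control diet. In KI_Half vs WT_Half all 9 changes were negative but small, -0.09 (Ccl5) to -0.65 (Itgae), and none was called, nor were any of the 16907 genes tested (0% lower). None of the 9 had an unadjusted p under 0.05, and DESeq2 and limma-voom called 0 of the 9. Over all genes 2398 had an unadjusted p under 0.05, DESeq2 called 171 and limma-voom 884. The 95% intervals were wide, for example -1.75 to 0.83 for Cd3g and -1.60 to 0.48 for Cd8a, so a 2-fold lower level in either gene lies within them. The direction of Ccl5, Klrd1, Cd3e and Cd7 changed under at least 1 other setting or without 1 library. Cd8a averaged 6.22 ± 4.65 CPM in KI_Half and 9.19 ± 5.37 CPM in WT_Half (SD, n = 6 and 7). Klrd1 averaged 2.92 ± 0.813 and 3.24 ± 1.197 CPM in the same groups, with an interval of -0.79 to 0.49. The libraries of the groups overlapped in all 9, and 0.148% of genes had every KI_Half library below every WT_Half library. The authors' deposited table calls none of the 9 in this comparison and 0.342% of its genes lower, with adjusted p of 0.383 to 0.954 for the 9.

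On the control diet the genotypes lay closer. The changes in KI_Con vs WT_Con were -0.03 (Cd3e) to 0.26 (Ccl5), 7 positive and 2 negative, with none called of the 9 or of all genes (0% lower) and 0 unadjusted p-values of the 9 under 0.05; DESeq2 and limma-voom called 0 of the 9. Over all genes 1664 had an unadjusted p under 0.05, DESeq2 called 11 and limma-voom 2. Cd8a averaged 25.3 ± 2.06 CPM in KI_Con and 21.7 ± 8.62 CPM in WT_Con, and Ccl5 26.03 ± 8.93 and 21.6 ± 8.02 CPM (SD, n = 4 each). The 95% interval was -0.39 to 0.81 for Cd8a and -0.57 to 0.64 for Klrd1. No gene of the 9 was free of overlap, against 1.61% of genes with every KI_Con library below every WT_Con library. The direction of 8 of the 9, all but Zap70, changed under at least 1 other setting or without 1 library.

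Whether the lower dose acted differently in the 2 genotypes was tested as an interaction over 21 libraries. All 9 estimates were negative, -0.19 (Klrd1) to -0.78 (Cd8a), and none was called (0% of genes lower); 0 of the 9 had an unadjusted p under 0.05 and DESeq2 and limma-voom called 0. Over all genes 2162 had an unadjusted p under 0.05, DESeq2 called 36 and limma-voom 1138. The interval was -2.29 to 1.15 for Cd3g, -1.82 to 0.51 for Lck and -1.10 to 0.72 for Klrd1. The sign of Cd3e, Cd7, Ccl5 and Klrd1 changed under at least 1 other setting or without 1 library. That 8 genes passed the threshold in the knock-in and 0 in wild type at the lower dose is therefore not shown to be a difference between the genotypes.

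Per length of transcript, the order of the 9 genes was compared within groups as mean CPM per kb of exon. In KI_Con it was Ccl5 (27.1 ± 9.30), Cd7 (10.5 ± 1.08), Cd8a (6.95 ± 0.567), Lck (3.97 ± 0.441), Cd3g (3.68 ± 0.319), Itgae (3.64 ± 1.03), Klrd1 (3.29 ± 0.777), Zap70 (2.13 ± 0.511) and Cd3e (1.79 ± 0.357) (SD, n = 4). The neighbours from Lck to Klrd1 differed by less than their spread, as did Zap70 and Cd3e. WT_Con had the same first 4 genes and the same last 3. In WT_Half and KI_Half, Klrd1 moved up to the third place, at 2.53 ± 0.934 (n = 7) in WT_Half and 2.28 ± 0.635 (n = 6) in KI_Half, next to Cd8a at 2.53 ± 1.48 and 1.71 ± 1.28. In WT_Full it was sixth, at 0.585 ± 0.207 (n = 4).

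The 9 genes went up and down together between libraries. Over the 25 libraries the Pearson correlation of each gene with the mean of the other 8 was 0.904 (Itgae) to 0.987 (Cd8a), except for Klrd1 at 0.781. With the group means subtracted it was 0.776 (Itgae) to 0.960 (Cd8a), and 0.582 for Klrd1. These are descriptions over libraries that share group, depth and tissue makeup.

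Klrd1 was high relative to Cd3e in the libraries of the lower dose, though not past the threshold once adjusted. The mean log2 ratio of Klrd1 to Cd3e was 0.42 ± 0.60 in WT_Half and -0.85 ± 0.45 in WT_Con (SD), a difference of 1.27 (two-sided exact permutation test, p = 0.0121). It was 0.65 ± 0.98 in KI_Half and -0.80 ± 0.61 in KI_Con, a difference of 1.44 (exact permutation test, p = 0.0476). In WT_Full it was -0.04 ± 1.37, a spread set partly by Cd3e, which had 7 reads in 1 of these libraries. Of 48 such ratio tests, 8 genes in 6 comparisons, 5 had an unadjusted p under 0.05 and 0 an adjusted one, the smallest adjusted p being 0.465. The other 3 were Cd3g in KI_Half vs KI_Con, with a difference of -0.74, and Cd7 and Zap70 in WT_Half vs WT_Con, with differences of 0.55 each. With 4 against 4 libraries the smallest p such a test can give is 0.0286.

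**Figure D5:**
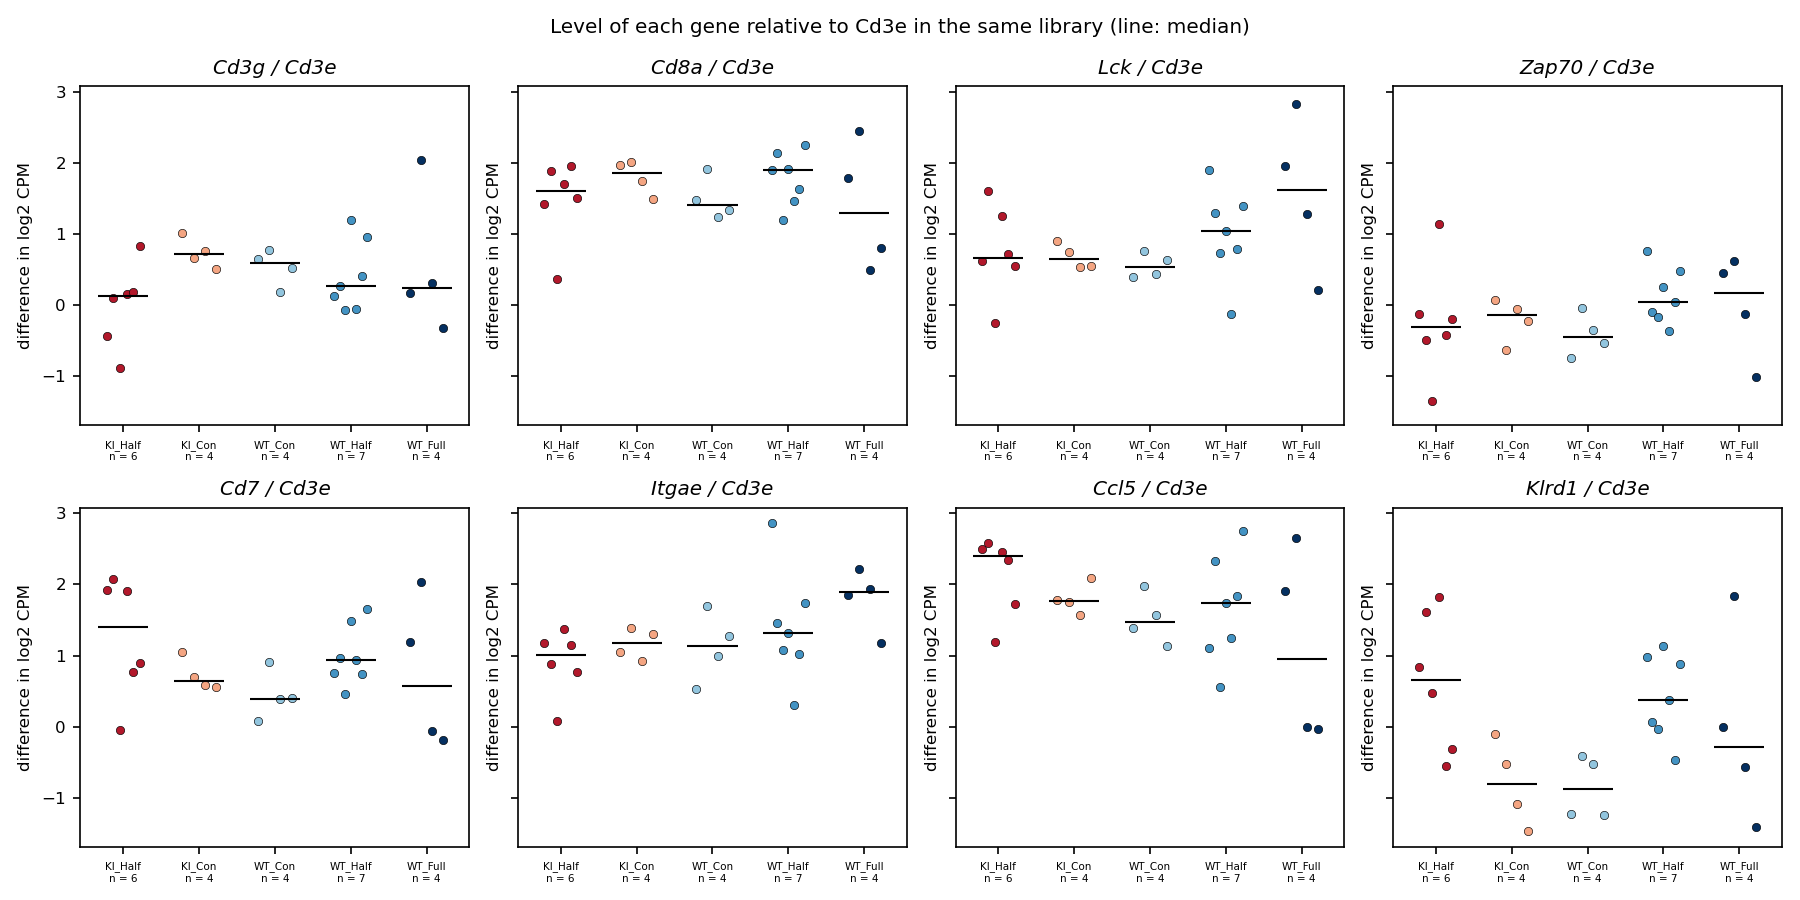
Difference in log2 CPM between each of 8 genes and Cd3e in the same library, for KI_Half, KI_Con, WT_Con, WT_Half and WT_Full, with a line at the median. The Klrd1 panel shows KI_Half and WT_Half above their controls, at means of 0.65 and 0.42 against -0.80 and -0.85, and the WT_Full points are widely spread in most panels.

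The genes whose pattern was most like the mean of the 9, among 14614 genes with a mean log2 CPM of at least 0, were Trgc2 (r = 0.974), Gzma (0.964), Nkg7 (0.957), Gimap8 (0.951), Apol7e (0.947), Gzmb (0.947), Gimap4 (0.938), Arhgap45 (0.922), Gbp4 (0.918) and Gimap3 (0.915) over the 25 libraries. Within groups, after subtracting group means, they were Gzmb (0.945), Trgc2 (0.922), Nkg7 (0.917), Gzma (0.915), Arsa (0.889), Pdx1 (0.888), Ctsw (0.884), Wipf3 (0.872), Slc39a14 (0.869) and Mgrn1 (0.866). Gzma, Gzmb and Nkg7 encode proteins of cytotoxic granules, and Trgc2 is the name the table gives to the gamma chain gene Tcrg-C2. Pdx1 is a transcription factor of the pancreas and duodenum, and its place shows that the within-group likeness was not limited to lymphocyte genes.

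Libraries of a group differed in the 9 genes as a block. In WT_Half, replicate 1 was lowest in 8 genes and below all WT_Con libraries in 9, replicate 3 was below them in 9, replicates 4, 5 and 7 in 8 (all but Klrd1), replicate 2 in 5 and replicate 6 in 0. WT_Half replicates 6 and 2 had the highest Brunner gland content of their group, 12.4 and 11.8 (mean log2 CPM), against 3.94 to 5.34 in the other 5. In the other wild-type groups this did not hold. WT_Con replicate 3, lowest in 8 genes, had the highest content, 14.07, and WT_Con replicate 2, highest in 6, the lowest, 3.54. WT_Full replicate 4, highest in 8 genes, had the lowest content, 2.30, and replicate 1 the highest, 11.1. In KI_Half, replicate 7 had 9.61 and replicate 3 had 11.2, of which only replicate 7 was high in the 9 genes. With this content as a covariate the WT_Half vs WT_Con changes were -0.38 to -1.51, the WT_Full vs WT_Con changes -2.43 to -3.79, and the KI_Half vs KI_Con changes -0.52 to -2.18 with the same 8 genes called. In the wild-type dose trend 0 of the 9 were called with it, against 9 in the main fit. The part of Brunner gland content in these levels was not tested further.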

How the data were processed

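Bulk RNA-seq libraries of 25 duodenum samples were used. Per the submitters' processing notes, the tools were FastQC, Trimmomatic, HISAT2, SAMtools, featureCounts and DESeq2 with the GRCm38 genome, and versions and strand setting are not stated there. The authors deposited whole-number read counts per gene in 2 tables with equal counts, 17220 lines each, of which 213 repeated lines were merged to leave 17007 genes. The same tables hold the authors' deposited log2 fold changes and their p-values and adjusted p-values, used only where named. Totals were 24.6 to 44.8 M counts per library (median 32.0 M).

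Each comparison was fitted on its own groups with edgeR 4.0.16 (R 4.3.3): TMM scaling, filterByExpr, the quasi-likelihood F test, Benjamini-Hochberg adjustment over all genes and an adjusted p under 0.05 as the threshold. Log2 CPM used a prior count of 0.5. The scripts were tested on simulated data. Alternatives were DESeq2 1.42.0, limma-voom with quality weights (limma 3.58.1), size factors by relative log expression, no filter on low counts, a single fit with all 25 libraries, a replicate block, Brunner gland and smooth muscle covariates, controls without those above 10 CPM of Ctrb1, and each library left out. Ratios used exact permutation tests (SciPy 1.17.1).

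The 9 genes and the lists were chosen with earlier results of these data known. Of other lists, the text names the 3 genes with the smallest p in WT_Full vs WT_Con and a chosen set of markers, and says where it names others.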

Additional observations from a re-analysis of the deposited data

Results flagged for a closer look

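In 45 sets of values, 1 for each of the 9 genes in each group, the highest or lowest library was compared with the rest of its group by Dixon's criterion. Chance alone meets it in about 1 of 20 groups of normally distributed values. That rate is no guide here, because CPM without logarithm was used, which can favour flags at the high end. The sets are also not independent, since the 9 genes went up and down together between libraries. It was met in 4 sets, always by the highest library. Cd3g was at 8.84 CPM in KI_Half replicate 7, where the next library had 2.80 CPM. Zap70 was at 4.33 CPM in the same library, where the next had 1.97 CPM. Zap70 was at 6.27 CPM in WT_Half replicate 6, where the next had 2.71 CPM. Ccl5 was at 39.3 CPM in KI_Con replicate 4, where the next had 23.0 CPM. KI_Half replicate 7 was the highest of its group in all 9 genes, and WT_Half replicate 6 in 8 of them. Their Brunner gland content was 9.61 and 12.4 (mean log2 CPM), and its part in these values was not tested beyond the covariate fits.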

How the results depend on the processing

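All 9 genes kept a negative sign in WT_Full vs WT_Con, WT_Half vs WT_Con, WT_Full vs WT_Half, the dose trend and KI_Half vs KI_Con under every alternative run. How many passed the threshold moved, and the cause was not tested. In WT_Full vs WT_Con 0 passed by edgeR, 9 by DESeq2, limma-voom and the fit of all libraries, and 0 to 9 with 1 library left out. In WT_Half vs WT_Con 0 passed by edgeR, 3 by DESeq2, 5 by limma-voom, and 0 to 4 with 1 library left out. In WT_Full vs WT_Half DESeq2 called 2. For the dose trend 9 passed, 0 with the replicate block or with the Brunner gland covariate, and 0 to 9 with 1 library left out. The wild-type fits without the Ctrb1-rich controls have 1 control, cannot decide the matter and are not counted here. In KI_Half vs KI_Con 8 passed, 7 to 8 in the other settings except 6 without the Ctrb1-rich controls; DESeq2 gave Cd3g no adjusted p. In KI_Half vs WT_Half the sign turned for Ccl5 (0.0533) and Klrd1 (0.0164) with the replicate block and for Ccl5 (0.11) with the Brunner gland covariate, all on the log2 scale. With 1 library left out the values ranged over -0.77 to 0.0217 for Cd3e, -0.40 to 0.13 for Cd7 and -0.35 to 0.27 for Ccl5. Leaving out the Ctrb1-rich controls keeps WT_Con replicate 2 as the only wild-type control, also in the genotype interaction. In KI_Con vs WT_Con the sign turned under that setting for Cd3g (-0.0252), Cd3e (0.12), Cd8a (-0.18), Cd7 (-0.22), Lck (-0.10) and Klrd1 (-0.76). There it also turned for Cd3e by limma-voom (0.0105) and with the replicate block (0.000417), and with the Brunner gland covariate for Lck (-0.0178) and Klrd1 (-0.19). Itgae turned by DESeq2 (0.00394), in the fit of all libraries (0.00457), with relative log expression size factors (0.0040), with the replicate block (0.0350) and with the smooth muscle covariate (0.10). With 1 library left out the values ranged over -0.13 to 0.32 for Cd3g, -0.19 to 0.16 for Cd3e, -0.000537 to 0.39 for Cd8a, -0.11 to 0.18 for Lck, -0.20 to 0.26 for Itgae, -0.00621 to 0.46 for Ccl5 and -0.11 to 0.25 for Klrd1. In the genotype interaction it turned with the replicate block for Cd7 (0.0795), Ccl5 (0.33) and Klrd1 (0.38), and without the Ctrb1-rich controls for Cd7 (0.11) and Klrd1 (0.62). With 1 library left out the values ranged over -0.73 to 0.0343 for Cd3e. None of these turned values passed the threshold. The main fits did not pair libraries by replicate number. In no comparison did every same-numbered pair correlate above 0.1 (KI_Half vs KI_Con 0.02 to 0.24, KI_Half vs WT_Half -0.37 to -0.03), with KI_Con vs WT_Con at 0.02 to 0.27. So few pairs cannot show whether the libraries were paired. As a hint from the data, 5 of 8 libraries in KI_Con vs WT_Con and 4 of 6 in KI_Half vs KI_Con correlated best with their own number, against 2 of 8 in WT_Full vs WT_Half and 0 in the other 3 comparisons. The block left 3 to 6 pairs and, apart from the dose trend, moved no count of calls by over 1.5 times. Low counts limit the values in WT_Full, where the lowest library held 7 reads in Cd3e, 11 in Zap70, 16 in Klrd1 and 18 in Cd3g.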
